A study of Mus musculus with 5 samples.

Results

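The regulatory T cell genes described here are 7 genes chosen by name for their known role in these cells: Foxp3, Ikzf2, Izumo1r, Tnfrsf18, Tnfrsf4, Il2ra and Nrp1. Each was found in the deposited value table as the probe set with 1 gene symbol and the highest mean, and all 7 had exactly 1 such probe set. The table gave a probe set of this kind for 19938 genes, of which 6603 had a mean log2 intensity of at least 6 over the mice; 5 of the 7 genes were among these, and Izumo1r (mean 5.96) and Il2ra (mean 4.63) were under that filter. Expression was measured by microarray in CD45+ leukocytes, sorted by flow cytometry from the pancreas of 5 female wild-type NOD mice at 10 weeks of age, with 1 array for each mouse. The NOD strain develops autoimmune diabetes spontaneously. All 5 mice form 1 group with no untreated or other-strain control, and they differed in the label that gives the T2 of their MRI scan, a relaxation time that depends on tissue water: 35.3, 35.24, 32.77, 30.02 and 28.98 ms for mice 1 to 5. The design asked which genes of the infiltrating leukocytes went up or down together with the MRI measurement. The labels do not say which T2 values go with more insulitis.

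Regulatory T cells are CD4+ T cells that restrain other immune cells, and loss of their lineage factor FOXP3 causes severe autoimmunity in mice and people. They depend on interleukin 2, which they bind through a high-affinity receptor that contains CD25, the product of Il2ra, and they carry high surface levels of several receptors that conventional T cells gain only on activation. In the islets of NOD mice they are among the cells known to hold back the progression from insulitis to diabetes. None of the 7 genes except Foxp3 is close to exclusive to these cells. The arrays measured RNA of all sorted leukocytes together, so fewer cells of a type and less RNA per cell cannot be told apart in any value below.

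Ptprc, the gene of CD45, had a log2 intensity between 10.94 and 11.20 on the 5 arrays, which does not measure the purity of the sort. Genes of pancreatic acinar cells were read too, and Ctrb1 lay at 8.66, 7.51, 8.17, 8.10 and 8.51 in mice 1 to 5. The summed intensity of the 5 acinar genes with a probe set was 896, 456, 626, 628 and 751. It was highest in mouse 1 and lowest in mouse 2, and its part in the comparisons of these mice was not tested. Median intensities of the arrays lay between 23.8 and 24.5. The table gives no detection call, so array quality and the presence of a transcript at low intensity could not be checked. The T cell list had 12 of 14 genes with a probe set and 11 past the filter, and its summed intensity ran from 4572 in mouse 1 to 6842 in mouse 2. Cd3e, a signalling chain of the T cell receptor complex, had log2 intensities of 8.80, 9.62, 9.31, 9.10 and 8.82 in mice 1 to 5. Cd4, the coreceptor of helper and most regulatory T cells, had 7.79, 8.80, 8.16, 8.31 and 8.19. Both were highest in mouse 2 and lowest in mouse 1, and they serve below as the T cell references. The size of an intensity depends on the probes, so the level of one gene is not set against that of another here, and a difference between a gene and a reference is read only for how it varied among mice.

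Foxp3 stood highest in mouse 2. This forkhead transcription factor defines the lineage, and it had intensities of 67.65, 93.5, 65.1, 67.65 and 61.8 in mice 1 to 5, a mean log2 intensity of 6.14 ± 0.24 (SD, n = 5). The value of mouse 2 was 1.38-fold that of the next mice, while the other 4 mice lay between log2 5.95 and 6.08. The deposited values of mice 1 and 4 were equal. Equal values were common in the table: 65.5% of the genes past the filter had the same value on at least 2 arrays and 38.2% on at least 3, for a reason the sources used here do not give. Ikzf2 encodes Helios, an Ikaros family factor of most thymus-derived regulatory T cells. Its log2 intensity was 5.99, 6.64, 6.21, 6.09 and 6.24 in mice 1 to 5, with a mean of 6.23 ± 0.25 (SD, n = 5). It was highest in mouse 2, by 1.33-fold over mouse 5, and lowest in mouse 1.

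Izumo1r encodes folate receptor 4, a surface protein of regulatory T cells and of anergic CD4+ T cells that was later identified as the egg receptor Juno. Its log2 intensity was 5.85, 6.33, 5.88, 5.97 and 5.75 in mice 1 to 5, with a mean of 5.96 ± 0.22 (SD, n = 5). Mouse 2 was again highest, by 1.28-fold over mouse 4, and mouse 5 lowest, as for Foxp3. After each gene was centred on its own mean, Foxp3 and Izumo1r differed by a root mean square of 0.046 log2 over the 5 mice, the smallest value among the pairs of the 7 genes. Il2ra and Tnfrsf18, which varied little, were almost as close at 0.049. Every other pair with Foxp3 or Izumo1r differed by 0.11 to 0.26.

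The promoters of these alike profiles are shown as the 250 bases before the RefSeq start, 5′ to 3′ on the gene's strand, with matches to the searched motifs in capitals. The Foxp3 window is chrX:7579426-7579675 (+) and the Izumo1r window chr9:14903768-14904017 (-), both in build GRCm38.p6.
Foxp3: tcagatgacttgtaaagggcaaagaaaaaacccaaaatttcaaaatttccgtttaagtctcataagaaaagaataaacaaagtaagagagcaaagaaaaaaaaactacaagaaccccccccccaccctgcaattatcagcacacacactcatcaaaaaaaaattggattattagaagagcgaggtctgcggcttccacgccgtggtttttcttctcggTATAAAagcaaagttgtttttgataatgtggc
Izumo1r: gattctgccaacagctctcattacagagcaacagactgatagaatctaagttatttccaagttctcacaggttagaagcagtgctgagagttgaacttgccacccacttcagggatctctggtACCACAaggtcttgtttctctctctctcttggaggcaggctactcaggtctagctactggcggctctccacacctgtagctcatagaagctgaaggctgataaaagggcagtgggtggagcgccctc
The capitals in the Foxp3 window are TATAAA, at position -32 from the start, a motif present in 12.4% of 32851 windows of this length. In the Izumo1r window they are the reverse strand of the RUNX motif TGTGGT, at position -127, found in 14.0% of windows. A further Foxp3 start in the table, at chrX:7580233-7580482 (+), held a STAT motif (TTCNNNGAA, 7.02% of windows) in its window. The motifs TGANTCA (AP-1), CCGGAA (ETS), GTAAACA (forkhead), TGACGTCA (CRE), GGGCGG (GC box) and an NF-kB motif of 10 letters, all searched on both strands with overlaps allowed, had no match in these 3 windows, which says only that those letters are not there. The GC content was 37.6% for the first Foxp3 window, against a median of 52.4% over all windows.

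**Figure D1:**
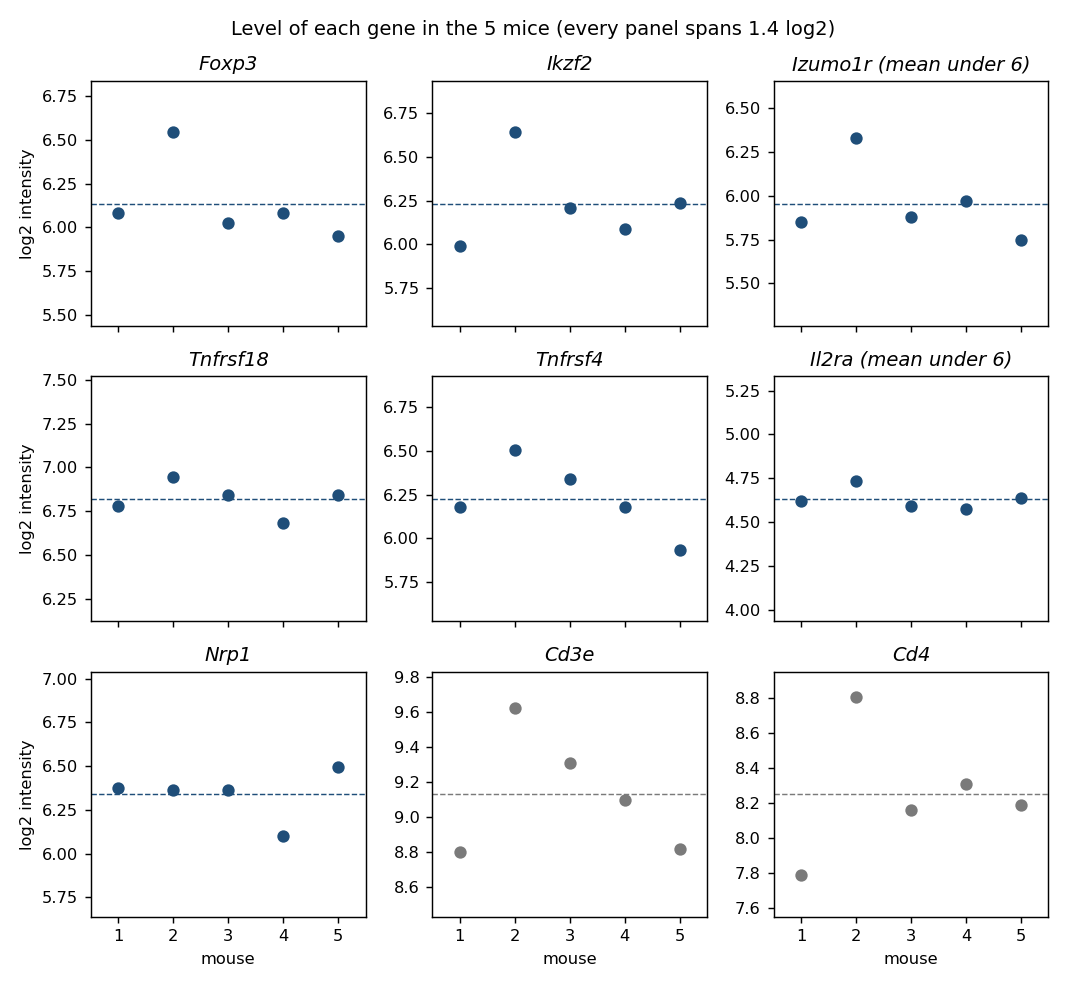
Log2 intensity of the 7 regulatory T cell genes (blue) and of Cd3e and Cd4 (grey) in each of the 5 mice; a point is 1 array, the dashed line is the mean, and all panels span the same number of log2 units. Mouse 2 is the highest point in every panel except that of Nrp1, where mouse 5 is highest at 6.50.

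The receptors of the TNF superfamily varied less or followed another order below mouse 2. Tnfrsf18 encodes GITR, a costimulatory receptor that regulatory T cells carry at rest. Its log2 intensity was 6.78, 6.95, 6.85, 6.68 and 6.85 in mice 1 to 5, a range of 0.26 and the smallest spread among the 5 genes past the filter (SD 0.097, n = 5). Tnfrsf4 encodes OX40, a costimulatory receptor of activated and regulatory T cells. It read 6.18, 6.50, 6.34, 6.18 and 5.93, with a mean of 6.23 ± 0.21 (SD, n = 5). Mouse 2 was highest for both, but by only 1.07-fold and 1.12-fold over the next mouse, and for Tnfrsf4 mouse 5 was the lowest. The values of mice 3 and 5 for Tnfrsf18, and those of mice 1 and 4 for Tnfrsf4, were equal.

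These receptor genes are near neighbours on chromosome 4, with only the non-coding genes Gm16008 and Gm25982 between them in the RefSeq table of GRCm38.p6, and their upstream windows are shown to let the neighbours be compared. The windows are chr4:156013445-156013694 (+) for Tnfrsf4 and chr4:156026072-156026321 (+) for Tnfrsf18.
Tnfrsf4: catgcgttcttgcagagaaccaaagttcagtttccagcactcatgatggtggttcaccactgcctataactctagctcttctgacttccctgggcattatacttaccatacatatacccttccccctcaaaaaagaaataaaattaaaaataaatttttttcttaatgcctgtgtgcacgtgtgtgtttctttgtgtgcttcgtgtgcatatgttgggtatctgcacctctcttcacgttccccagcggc
Tnfrsf18: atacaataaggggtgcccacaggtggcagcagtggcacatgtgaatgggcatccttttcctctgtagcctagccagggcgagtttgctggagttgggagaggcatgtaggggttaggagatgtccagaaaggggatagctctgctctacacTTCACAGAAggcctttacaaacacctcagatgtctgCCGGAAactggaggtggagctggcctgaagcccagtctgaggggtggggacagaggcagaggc
The Tnfrsf4 window had no match to any of the 9 motifs. In the Tnfrsf18 window the capitals mark a STAT match at position -99 and the ETS motif at position -63, found in 7.02% and 12.0% of windows. The GC content was 42.8% and 56.0%. Their centred profiles differed by a root mean square of 0.17 log2, more than the 0.11 between Tnfrsf4 and Izumo1r.

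Il2ra and Nrp1 did not share the pattern in the same way. The intensity of Il2ra was 24.6, 26.7, 24.1, 23.8 and 24.9 in mice 1 to 5, between 0.997 and 1.11 times the median intensity of its array, so CD25 was measured at the level of the middle probe set, and its whole range was 0.17 log2. Mouse 2 was the highest here too, by 1.07-fold, on a signal at which little change can be resolved. Nrp1 encodes neuropilin 1, a coreceptor of semaphorins and VEGF and a surface marker of thymus-derived regulatory T cells. Its log2 intensity was 6.37, 6.36, 6.36, 6.10 and 6.50, highest in mouse 5 and lowest in mouse 4, with mice 2 and 3 equal.

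Nrp1 is also carried by plasmacytoid dendritic cells, some macrophages and endothelial cells, so their markers are given beside it. All 7 genes of the plasmacytoid list with a probe set passed the filter, and the summed intensity of the list was 1182, 1008, 1137, 1098 and 1281 in mice 1 to 5. Mouse 5 was highest for this sum, but the genes of the list did not share an order. Siglech, a lectin of plasmacytoid dendritic cells, and Tcf4, their lineage factor, were highest in mouse 5, at log2 6.61 and 7.54. Irf8, a factor of several myeloid and B cell types, was highest in mouse 4 at 8.39, Bst2 in mouse 3 at 6.93, Ccr9 in mouse 2 at 6.85 and Spib in mouse 1. Mouse 4, the lowest for Nrp1, was not the lowest for the sum of the plasmacytoid list. It was the lowest for the mean log2 intensity of the 7 genes, which was 7.02, 7.05, 7.17, 6.99 and 7.35 in mice 1 to 5. Mouse 5 was highest for this mean, as for Nrp1. Ly6d, also of the list, was lowest in mouse 4 at 6.96 and highest in mouse 5 at 7.34. The macrophage list, with 10 of 10 genes measured and 9 past the filter, had a summed intensity of 2480, 2288, 3530, 4914 and 5291. Its genes Apoe, C1qa and Adgre1 had T2 slopes of -0.24 ± 0.020, -0.25 ± 0.029 and -0.22 ± 0.027 log2 per ms; none passed limma's test over the 6603 genes, and all 3 passed it when genes of equal values were left out. Of the endothelial list only Pecam1, which leukocytes also express, passed the filter, and the defining markers Cdh5 and Kdr lay at log2 3.62 to 3.75 for the first and at 3.59 on 4 of the 5 arrays for the other. No gene of these lists read 0 on these arrays, since the smallest deposited value was above 0. The part of these cells in the Nrp1 values was not tested.

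Across the 7 genes, 6 had their highest value in mouse 2, and all but Nrp1. Over all 19938 genes this was so for 14.9%, and over the 6603 past the filter for 12.3%, where 4 of the 5 members had it. The same held for 10 of the 11 genes of the T cell list past the filter and for 3 of the 10 genes of the list of other regulatory T cell genes. None of the 6 B cell or 9 macrophage genes past the filter was highest in mouse 2. The B cell list ran opposite to the T cell list at its ends, with a summed intensity of 5136, 2752, 3242, 4332 and 4400 in mice 1 to 5, lowest in mouse 2 and highest in mouse 1. Relative to the mean of the other 4 mice, mouse 2 had 1.43-fold Foxp3, 1.43-fold Ikzf2, 1.38-fold Izumo1r, 1.27-fold Tnfrsf4, 1.12-fold Tnfrsf18, 1.10-fold Il2ra and 1.02-fold Nrp1, beside 1.53-fold Cd3e and 1.62-fold Cd4. With 1 array for each mouse these folds have no error of their own. The part of T cell and B cell content in the high values of mouse 2 was not tested. The comparison with Cd3e and Cd4 that follows cannot test it. Both references were higher in mouse 2 by larger folds than any member.

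Relative to Cd3e, mouse 2 no longer had the highest value of any of the 7 genes. The difference of log2 Foxp3 minus log2 Cd3e was -2.72, -3.08, -3.29, -3.02 and -2.87 in mice 1 to 5, so Foxp3 was highest relative to Cd3e in mouse 1 and lowest in mouse 3. Izumo1r had its highest and lowest difference in the same mice, at -2.95 and -3.43. Ikzf2 was highest in mouse 5 at -2.58 and lowest in mouse 3 at -3.10. Over all genes past the filter 92.9% were lowest relative to Cd3e in mouse 2, where Cd3e itself was highest. Tnfrsf18, Tnfrsf4, Il2ra and Nrp1 were among the genes with that order, and Foxp3, Ikzf2 and Izumo1r were not. Highest in mouse 1 were 4 of the 7 members (Foxp3, Il2ra, Tnfrsf4 and Izumo1r), beside 65.7% of all genes and 50.4% of those past the filter.

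The spread of most members around Cd3e was small. The SD of the difference to Cd3e over the 5 mice was 0.21 for Foxp3, 0.20 for Ikzf2, 0.19 for Izumo1r and 0.18 for Tnfrsf4, against a median of 0.38 over the genes past the filter, and under 1% of those genes had a smaller one. It was 0.30 for Tnfrsf18, 0.32 for Il2ra and 0.40 for Nrp1, and 59.9% of genes had a smaller one than Nrp1. Most of the median comes from Cd3e itself, whose own SD was 0.35. Subtraction of Cd3e changed the SD of Foxp3 only from 0.24 to 0.21, and the SDs of Tnfrsf18, Il2ra and Nrp1 were larger after it than before. Without mouse 2, the remaining 4 mice had an SD of 0.062 for Foxp3 and 0.24 for Cd3e. Among these 4 the order was mice 1 and 4, then 3 and 5 for Foxp3, and mice 3, 4, 5 and 1 for Cd3e.

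Relative to Cd4 mouse 1 had the highest value of all 7 genes, as it had for 94.2% of all genes and 92.9% of those past the filter, since Cd4 itself was lowest there. The difference of log2 Foxp3 minus log2 Cd4 was -1.71 in mouse 1 and lay between -2.26 and -2.14 in the other 4 mice. Among those 4 mice the difference had a range of 0.12, while Cd4 alone ranged from 8.16 to 8.80. Over all 5 mice its range was 0.55 (SD 0.23). Mouse 1 was set apart after its value was seen, and the share of genes with so small a range was not counted. In mice 3 to 5 Cd4 spanned only 8.16 to 8.31 and Foxp3 5.95 to 6.08. The small range among the 4 mice thus rests largely on mouse 2, which was high for both genes. Tnfrsf4 had -1.61, -2.30, -1.82, -2.13 and -2.25 in mice 1 to 5 and Ikzf2 -1.80, -2.16, -1.96, -2.22 and -1.95. Ikzf2, lowest in mouse 4, was the exception among the members to a lowest value in mouse 2, which 98.7% of genes past the filter had.

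**Figure D2:**
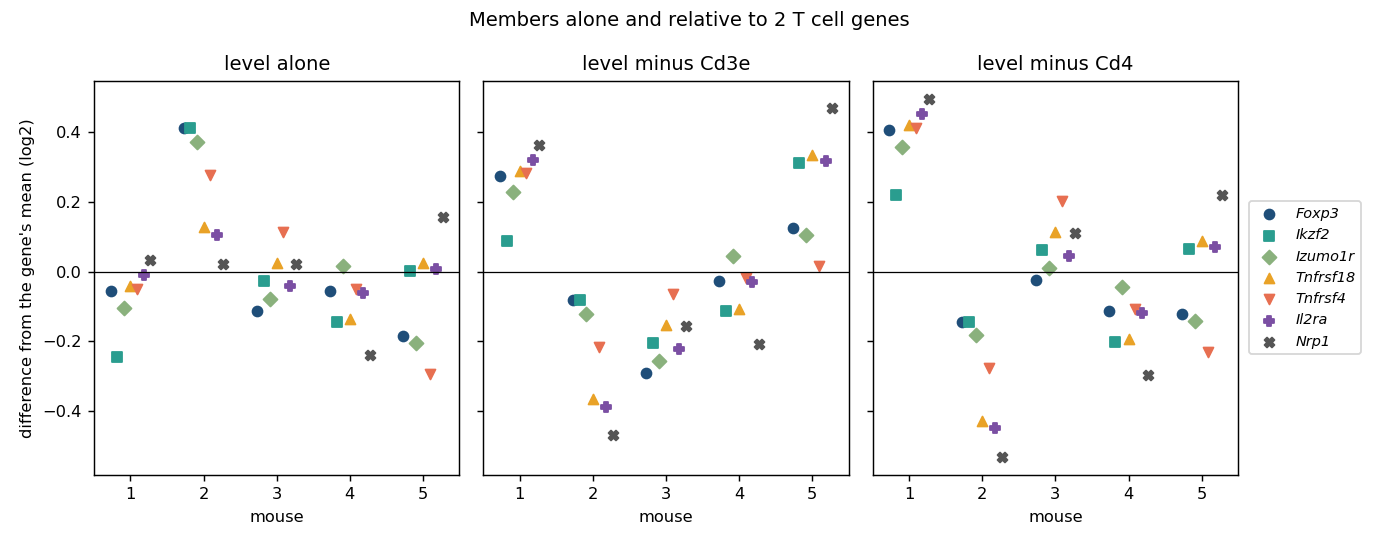
Each gene's difference from its own 5-mouse mean, in log2, for the level alone, minus Cd3e and minus Cd4; a symbol is 1 gene in 1 mouse. Foxp3, Ikzf2 and Izumo1r lie 0.37 to 0.41 above their means in mouse 2 alone, and all 7 genes lie above their means in mouse 1 after subtraction of Cd4.

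No member's level changed detectably with T2. The slopes, from limma, in log2 units per ms with standard errors (n = 5), were 0.053 ± 0.026 for Tnfrsf4, 0.051 ± 0.032 for Foxp3, 0.041 ± 0.034 for Izumo1r, 0.023 ± 0.042 for Ikzf2, 0.014 ± 0.016 for Tnfrsf18, 0.011 ± 0.010 for Il2ra and 0.0058 ± 0.025 for Nrp1. Between the lowest and the highest T2, 6.32 ms apart, these fits give a ratio of 1.25 for Foxp3 (95% interval 0.841 to 1.86) and of 1.26 for Tnfrsf4 (0.920 to 1.73). All 7 slopes were above 0, with a median of 0.023, where 28.9% of the genes past the filter and 44.6% of all genes had such a slope and the median of the genes past the filter was -0.0074. The size of the slopes rested on mouse 2 for several genes. Without that mouse the slope of Foxp3 was 0.013, that of Izumo1r 0.0043, that of Tnfrsf4 0.035 and that of Ikzf2 -0.026. Leaving out each mouse in turn gave 0.013 to 0.081 for Foxp3, 0.0043 to 0.074 for Izumo1r and 0.028 to 0.083 for Tnfrsf4, the lowest of the latter without mouse 5 and the highest of all 3 without mouse 1. Nrp1 had -0.020 without mouse 4. Under limma's test 0 of the 7 genes passed at an adjusted p under 0.05, and 0 at an unadjusted p under 0.05; over the 6603 genes 0% passed the first and 5.29% the second, and over all 19938 genes 0% and 3.24%. Tnfrsf4 and Foxp3 both had a limma adjusted p = 0.828. An exact permutation test over all 120 assignments of T2 to mice gave two-sided p = 0.233 for Foxp3 and 0.167 for Tnfrsf4 (adjusted p = 0.872 for both over the 25 values permuted), where 5 mice cannot give a p below 0.00833.

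Relative to the T cell references every 95% interval of a member's slope contained 0. Foxp3 minus Cd3e had a slope of 0.0027 log2 per ms with a 95% interval from -0.13 to 0.14 by ordinary least squares, and Foxp3 minus Cd4 one of 0.043 ± 0.039 (SE), from -0.080 to 0.17. Tnfrsf4 had 0.0050 relative to Cd3e (-0.11 to 0.12) and Ikzf2 -0.025 (-0.15 to 0.095). Of the 7 genes 2 had a slope above 0 relative to Cd3e, beside 1.45% of genes past the filter and 1.92% of all, and 6 relative to Cd4, beside 14.6% and 24.8%. The counts rest on single mice: relative to Cd3e they were 0 without mouse 1, 6 without mouse 2 and 7 without mouse 5, and relative to Cd4 they were 2 without mouse 1 and 3 without mouse 4. Exact permutation p-values of the members lay between 0.492 and 0.942 relative to Cd3e and between 0.392 and 0.992 relative to Cd4. In limma 0 of 7 passed on either scale, adjusted or not. Without mouse 1, 3 passed the adjusted threshold relative to Cd3e, beside 6420 of the 6602 genes tested. Relative to Cd3e 0.409% of genes past the filter passed adjusted and 2.39% unadjusted (0.135% and 1.4% of all genes). Relative to Cd4 it was 0.0454% and 1.26% (0.015% and 0.522% of all genes). Subtraction puts the deviation of 1 gene into all of them, so limma gave every gene of a fit the same standard error. Relative to Cd3e it was 0.072, and 0.067 for Il2ra and Izumo1r, which come from the fit without the filter. The limma counts of genes passing or called on these scales are therefore given as a description only.

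**Figure D3:**
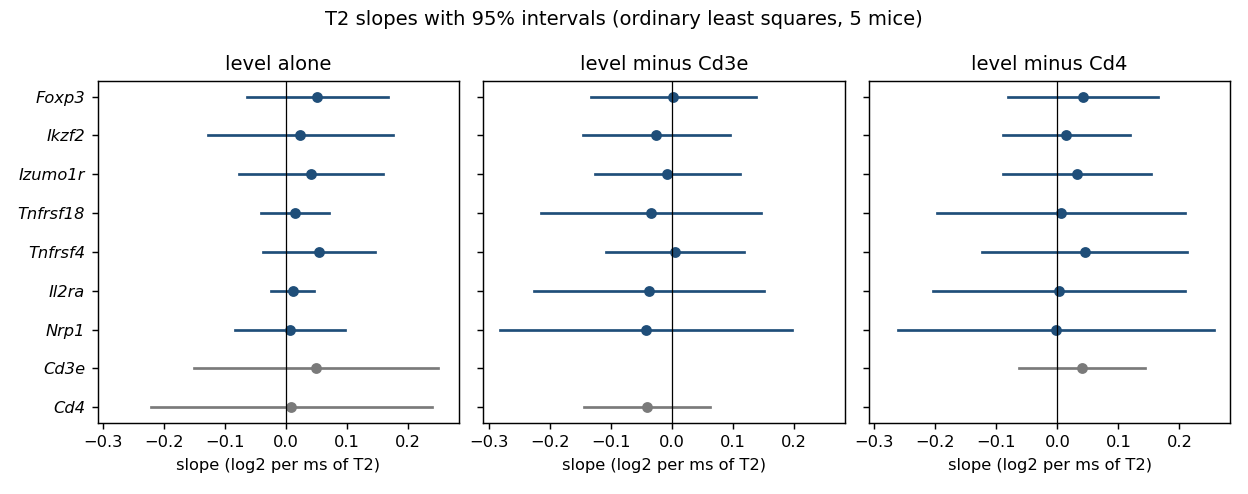
T2 slope in log2 per ms for the level alone, minus Cd3e and minus Cd4; points are slopes over 5 mice and lines are 95% intervals by ordinary least squares. Every interval contains 0, for the 7 genes (blue) and for Cd3e and Cd4 (grey).

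Mice 1 and 2 had nearly the same T2, so their difference shows variation that T2 does not carry. Foxp3 was 1.38-fold, Ikzf2 1.57-fold, Izumo1r 1.39-fold, Tnfrsf4 1.25-fold and Tnfrsf18 1.12-fold as high in mouse 2 as in mouse 1. On the log2 scale these differences were 0.47 for Foxp3 and 0.65 for Ikzf2, against fitted changes over the whole T2 range of 0.32 and 0.15. Tnfrsf4 was the exception among these 5, with 0.33 between the mice and 0.34 over the range. Over the genes past the filter the median size of the difference between these mice was 0.072, and 6.44% had a larger one than Foxp3 and 2.85% a larger one than Ikzf2. Cd3e and Cd4 differed by 0.82 and 1.02, while Nrp1 differed by -0.010.

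**Figure D4:**
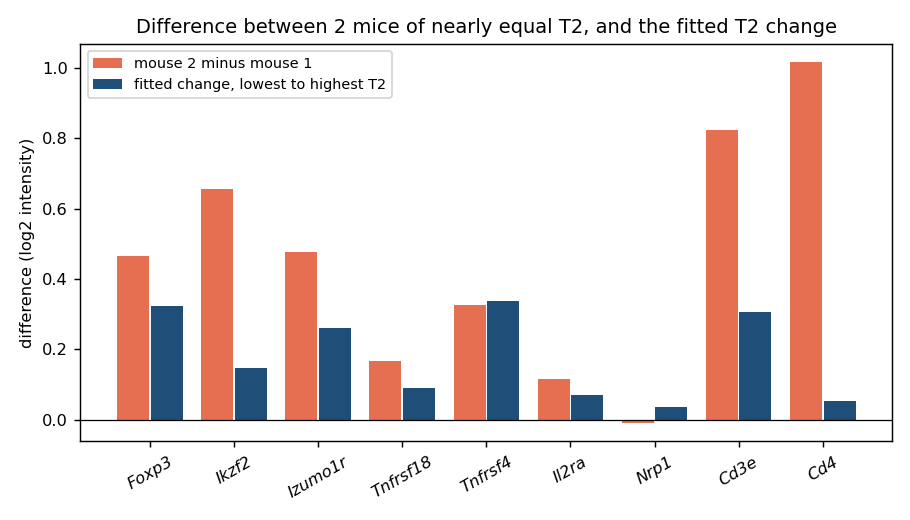
For each gene, the log2 difference of mouse 2 minus mouse 1, with T2 of 35.24 and 35.3 ms (orange), and the fitted change from the lowest to the highest T2 (blue); the bars start at 0 and have no error bars, since the first is a difference of 2 arrays. The orange bar exceeds the blue one for Foxp3 (0.47 against 0.32), Ikzf2, Izumo1r, Tnfrsf18, Il2ra, Cd3e and Cd4.

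The genes whose centred profiles were closest to that of Foxp3 among the 6603 past the filter were Dctn6 (root mean square difference 0.037 log2 over the 5 mice), Mthfd2 (0.038), Zfp574 (0.050), Eif1ad (0.052) and Stk26 (0.073). Dctn6 encodes a dynactin subunit and Mthfd2 a mitochondrial enzyme of folate metabolism. Izumo1r, under the filter, was 11th among all 19937 other genes. Ikzf2 and Tnfrsf4 followed at 0.13, with 2.31% and 2.08% of all genes closer, while 13.4% were closer than Cd3e. The mean profile of the 5 members past the filter was nearest to those of Tmsb10, Sumo2, Snrpe, Usp31 and Mrps18c, at 0.022 to 0.033. Close profiles among 5 mice are given as a description only.

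Other genes of regulatory T cells did not move as 1 group. Of 22 listed genes 10 passed the filter, with 5 slopes above and 5 below 0 and a median of -0.0031. Over all genes past the filter 28.9% had a slope above 0, with a median of -0.0074. Icos, a costimulatory receptor of activated and regulatory T cells, had log2 intensities of 6.57, 7.16, 6.89, 6.66 and 6.71 and was highest in mouse 2. Entpd1 and Nt5e, the ectonucleotidases CD39 and CD73 that turn extracellular ATP into adenosine, had instead their highest values in mouse 5. Entpd1 read 7.53, 7.63, 7.77, 7.81 and 8.08 in mice 1 to 5 (slope -0.066 ± 0.014, limma adjusted p = 0.530) and Nt5e 5.83, 6.69, 6.88, 7.07 and 7.24 (slope -0.15 ± 0.055, limma adjusted p = 0.828). Macrophages and B cells also carry these enzymes. The macrophage list sum was 2480, 2288, 3530, 4914 and 5291 in mice 1 to 5. From mouse 1 to mouse 2 that sum fell while Entpd1 and Nt5e rose. The B cell list sum was highest in mouse 1, at 5136, where both genes were lowest. The part of these cells in the values was not tested. Ctla4, the inhibitory receptor, named after its values were seen, lay under the filter at 5.96, 6.09, 5.96, 5.69 and 5.90, highest in mouse 2. Il10 lay at 2.84 to 2.89.

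Of the list of effector regulatory T cells 6 of 14 genes with a probe set passed the filter, with 5 slopes above 0 and a median of 0.019. The share above 0 was 28.9% over all genes past the filter. Cxcr3, a chemokine receptor of type 1 effector and regulatory T cells, had log2 intensities of 8.11 and 7.93 in mice 2 and 3 and of 7.51 and 7.43 in mice 4 and 5, with mouse 1 between these pairs (slope 0.069 ± 0.038). Maf, a transcription factor of interleukin 10 producing T cells, had 6.56, 6.70, 6.60, 6.53 and 6.11 (slope 0.060 ± 0.026). Both were highest in mouse 2 and lowest in mouse 5, and neither passed limma's test (adjusted p = 0.828 for both). Batf, a factor of effector differentiation, was nearly flat, at 6.10 to 6.19.

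The interleukin 2 pathway beside Il2ra was measured in 8 genes past the filter, of which 2 had a slope above 0, with a median of -0.010. The share above 0 was 28.9% over all genes past the filter, with a median of -0.0074. Il2rb, the receptor's beta chain, read 7.37 in mouse 1, 8.11 in mouse 2 and an equal 7.89 in mice 3, 4 and 5. Socs1, an inhibitor that cytokine signalling induces, read 6.03, 6.25, 6.20, 6.03 and 5.70 (slope 0.053 ± 0.026; limma adjusted p = 0.828). The transducers Stat5a and Stat5b varied little, with SDs of 0.088 and 0.044 (n = 5). Il2 itself lay at 2.73 to 3.26, near the low end of the scale. A further list held ligands of the members and related genes. Of these, Tnfsf18 (the GITR ligand) and Tnfsf4 (the OX40 ligand) were also at the low end. They lay at 2.75 to 3.01 and at an equal 2.99 on all 5 arrays. Only Sema4a (slope -0.015 ± 0.035) and Cd9 (-0.082 ± 0.033) passed the filter, and Cd9, a tetraspanin, is not a ligand of the 7 genes. Mcl1 and Bcl2, survival factors of the interleukin 2 list, had slopes of -0.041 ± 0.030 and -0.035 ± 0.029 and were both highest in mouse 5.

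The list of FOXP3 partners and related regulators had slopes of both signs. Of 16 genes past the filter 5 had a slope above and 11 below 0, with a median of -0.0035. Over all genes past the filter 28.9% had a slope above 0, with a median of -0.0074. Smad3, a transducer of TGF-beta signals, had log2 intensities of 7.51, 7.51, 7.55, 7.64 and 7.58 in mice 1 to 5 (slope -0.017 ± 0.0060, limma adjusted p = 0.828), and Runx1, a binding partner of FOXP3, 7.29 in mouse 1 and 7.36 to 7.39 in the others (slope -0.0087 ± 0.0055). At an unadjusted p under 0.05 stood 1 of the 16 genes, Smad3, beside 5.29% of the genes past the filter. Nr4a1, an orphan nuclear receptor induced by T cell receptor signals, stood at 9.09 in mouse 1 and 8.60 to 8.63 in the others. The signalling genes of TNF receptors had 3 slopes above and 3 below 0 among 6 past the filter, with a median of 0.00069. Relb and Rela, subunits of NF-kB, had 0.022 ± 0.011 and 0.0098 ± 0.016, and Traf2, an adaptor of these receptors, -0.010 ± 0.010. The T cell list had 9 above and 2 below, with a median of 0.020 beside the 0.023 of the members. Cd247, the zeta chain of the T cell receptor complex, had a slope of 0.076 ± 0.036 and Cd3g, another chain, 0.037 ± 0.043. None of the genes of these lists passed limma's adjusted test.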

How the data were processed

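RNA of pancreatic CD45+ cells was hybridised to 1 array for each of 5 mice. The authors deposited 1 linear intensity for each probe set and array; the submitters' processing notes name RMA and Affymetrix Power Tools, and neither a version nor a build is given in the sources used here. Intensities were transformed to log2. Probe sets were named from GEO's platform annotation, using sets with 1 symbol and, for each gene, the set of highest mean. A line on T2 was fitted to these values in limma 3.58.1 (lmFit, then eBayes; R 4.3.3), leaving 3 degrees of freedom, over the 6603 genes with a mean of at least 6, two-sided, with Benjamini-Hochberg adjustment at 0.05; the 2 members under the filter come from the same fit without it (19938 genes). The fit was tested on simulated normal values without ties, with planted slopes far larger than those of the members. That test says nothing about slopes as small as theirs. Differences to Cd3e and Cd4 were fitted alike, with ordinary least-squares intervals added after the shared standard error was seen. Permutations took all 120 orders of T2. Promoter windows are from RefSeq (GRCm38.p6), found for 6 members.

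The members and gene lists were chosen with earlier results of these data known. Genes named were the members, Cd3e, Cd4, the 3 genes past the filter with the largest moderated t of each list whose slopes are described, and the 5 nearest profiles. Other list genes, Siglech, Ccr9, Spib, Ly6d, Ctrb1, Il2rb and the low ligands among them, were named after their values were seen. For the B cell, acinar and endothelial lists only sums, counts or single markers are given, and other lists are not described. Samples are separate animals by their labels, which give neither a date nor a slide, which left no batch to test. The T2 label falls with the sample number. With 5 arrays precision is limited by their number. Alternatives were no filter or a stricter one, arrays quantile normalized again or centred, probe-set means, the rank of T2, an intensity trend, array weights, a threshold of 0.10, removal of genes with equal values on 3 or more arrays, other T cell references and each mouse left out.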

Additional observations from a re-analysis of the deposited data

Results flagged for a closer look

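Of 60 values examined over the 5 mice, 5 had 1 mouse apart from the other 4, judged by how much of the range lies between it and the next mouse. For independent normal values without ties chance gives about 1 in 20. That rate cannot be applied here, since values are often equal on several arrays and the same gene enters alone and relative to Cd3e and Cd4. Foxp3 was highest in mouse 2, at log2 6.55 against 5.95 to 6.08 in the others (gap share 0.782). Foxp3 relative to Cd4 was highest in mouse 1, at -1.71 against -2.26 to -2.14 (0.783). Maf was lowest in mouse 5, at 6.11 against 6.53 to 6.70 (0.720). Nr4a1 was highest in mouse 1, at 9.09 against 8.60 to 8.63 (0.934). Traf2, an adaptor of TNF receptors, was highest in mouse 4, at 7.08 against an equal 6.94 in the other 4 (1.00, which the equal values fix).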

How the results depend on the processing

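No paired analysis was possible because the 5 mice form 1 group. Of 105 alternative fits of the members' T2 slopes, 103 kept their direction and stayed short of the threshold. The other 2 reversed, Ikzf2 without mouse 2 and Nrp1 without mouse 4. Many of these fits could not change a direction. The slope itself stays the same with no filter, probe-set means, an intensity trend, a threshold of 0.10, removal of genes with equal values, and ordinary least squares. No member has a mean of 7, so that filter gives none of them a value. The 0 genes past the adjusted T2 threshold became 3 with a filter of 7, 4 with arrays quantile normalized again, 4 with array weights, 3 at a threshold of 0.10 and 35 without genes of equal values; the cause was not tested. Relative to Cd3e, 27 genes passed, against 8 on the rank of T2, 8 with an intensity trend, 6439 with array weights, 0 by ordinary least squares (chosen after seeing the data) and 0 with Cd3e as a covariate. Relative to Cd4, 3 passed, against 1 with a filter of 7, 1 with an intensity trend, 4747 with array weights, 6 at a threshold of 0.10, 0 by ordinary least squares and 0 with Cd4 as a covariate. Array weights called 4 members on each of these scales, left 0 members above 0 relative to Cd3e, and gave -0.013 for Foxp3 and -0.038 for Tnfrsf4 relative to Cd3e and -0.0061 for Il2ra and -0.00084 for Ikzf2 relative to Cd4. All these differences share the deviation of 1 reference gene.

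Among other reversals, the slope with Cd3e as a covariate was 0.0075 for Il2ra, 0.0081 for Tnfrsf18, 0.017 for Izumo1r and 0.011 for Nrp1, with 6 members above 0. With Cd4 as a covariate Nrp1 had 0.0063. On the rank of T2, Cd4 had -0.030 log2 per rank, Izumo1r relative to Cd3e 0.0080 and Nrp1 relative to Cd4 0.031. With arrays quantile normalized again Runx1 had 0.0030, Traf2 0.00091 and Il2ra relative to Cd4 -0.0063, and with array weights Rela had -0.0036. List medians moved for effector regulatory T cells (no filter 0.0092, filter of 7 0.027, quantile again 0.030, rank 0.050, without equal values 0.044) and interleukin 2 signalling (quantile again -0.0025). They also moved for ligands and related genes (no filter -0.00061, without equal values -0.082), macrophages (rank -0.42) and the members (array weights 0.053).

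Leaving out each mouse in turn gave T2 slopes of -0.026 to 0.069 for Ikzf2, -0.020 to 0.047 for Nrp1, -0.0029 to 0.12 for Cd3e, -0.068 to 0.080 for Cd4, -0.0086 to 0.077 for Icos, -0.054 to 0.013 for Bcl2, -0.012 to 0.089 for Cd3g, -0.0035 to 0.020 for Rela, -0.034 to 0.015 for Sema4a and -0.090 to 0.026 for Tcf4. Relative to Cd3e they were -0.037 to 0.034 for Foxp3, -0.049 to 0.027 for Ikzf2, -0.10 to 0.0063 for Il2ra, -0.044 to 0.011 for Izumo1r, -0.11 to 0.032 for Nrp1, -0.091 to 0.017 for Tnfrsf18 and -0.035 to 0.038 for Tnfrsf4, with 0 to 7 members above 0, 0 to 3 members called and 1 to 6420 genes called. Relative to Cd4 they were -0.011 to 0.042 for Ikzf2, -0.063 to 0.068 for Il2ra, -0.0065 to 0.072 for Izumo1r, -0.077 to 0.072 for Nrp1 and -0.054 to 0.070 for Tnfrsf18, with 2 to 7 members above 0 and 0 to 437 genes called. List medians were 0.0048 to 0.069 for the members, -0.024 to 0.0027 for other regulatory T cell genes, 0.015 to 0.046 for effector regulatory T cells, -0.019 to -0.0017 for interleukin 2 signalling, -0.028 to 0.077 for T cells, -0.030 to 0.0099 for plasmacytoid dendritic cells and -0.26 to -0.21 for macrophages. Low signal limits Il2ra most, at the array median.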
